A study of Mus musculus with 24 samples.

Results

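MHC class I antigen presentation was followed here through 10 genes of 54532 listed in each of 24 RNA-Seq count profiles of mouse tissue. They are the heavy chains H2-K1 and H2-D1, their light chain B2m, the peptide transporter Tap1 and Tap2, the loading protein Tapbp, the inducible proteasome subunits Psmb8, Psmb9 and Psmb10, and the transcriptional activator Nlrc5. They were taken by symbol through GENCODE release M21 of GRCm38, and all 10 were found. The samples were heart, stomach, muscle and tongue of Trex1-KO mice, with 3 control and 3 SN-011 samples of each tissue in 8 groups. SN-011 is a small molecule that blocks STING. The labels give SN-011 at 5 mg/kg on 3 days of each week for 4 weeks and call the controls untreated, whereas the study's methods give a higher daily dose over a shorter course, mice 1 month old, and injected vehicle in the controls. Every group carried the Trex1 knockout, so a wild-type level was not analysed here. The Trex1 knockout is in the whole animal, and each sample is a whole tissue with all its cell types.

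MHC class I molecules show peptides from inside the cell to CD8+ T cells. The proteasome cuts cytosolic proteins, TAP1 and TAP2 carry the peptides into the endoplasmic reticulum, and tapasin (TAPBP) holds an empty heavy chain with its light chain beside the transporter until a peptide binds. Interferon raises the whole set, in part through NLRC5, and exchanges 3 catalytic proteasome subunits for the inducible ones (Psmb8 for Psmb5, Psmb9 for Psmb6, Psmb10 for Psmb7). TREX1 degrades cytosolic DNA, and without it the DNA sensor cGAS makes the messenger that activates STING, which leads to type I interferon.

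Total counts per sample ran from 14253416 to 18443329, with a median of 16221409, and 3 counts, taken as the smallest amount that can be shown, came to 0.163 to 0.210 CPM (counts scaled to library size; counting error only). Counts of Trex1 were 0 throughout, which does not show the genotype, because another gene overlaps Trex1 on its strand. Control replicate 1 of every tissue had 3060 to 13811 counts of Xist and 0 to 3 of the Y-linked Ddx3y, while the other 20 samples had at most 20 of Xist and at least 825 of Ddx3y, a difference in sex that the labels do not give. In muscle SN-011 replicate 2 only 11546 genes had any count, while the other muscle samples had 19798 to 21387. Genes of gastric glands (Atp4a, Atp4b, Gif, Gkn1, Muc5ac, Pgc and Tff1) summed to 2580 and 246 CPM in heart control replicates 2 and 3, 560 and 234 CPM in the same replicates of muscle and 2520 and 1810 CPM in those of tongue, but to at most 39.4 CPM in the other samples of these tissues. The defining genes of each labelled tissue were present in all its samples. Nothing in the labels says that same-numbered samples come from 1 mouse or that samples of a group come from separate mice, so the p-values measure the spread between these samples.

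Of the 10 genes, 7 lie on chromosome 17, 2 on chromosome 8 and 1 on chromosome 2 (GRCm38). The closest group on chromosome 17 is Psmb9 (17:34181987-34187764, minus strand), Tap1 (17:34187553-34197225, plus strand), Psmb8 (17:34197721-34201454, plus strand) and Tap2 (17:34203527-34216321, plus strand), with 496 bases between Tap1 and Psmb8 and 2073 between Psmb8 and Tap2. Tapbp (17:33915899-33929292, plus strand) and H2-K1 (17:33996017-34000347, minus strand) lie on one side of it and H2-D1 (17:35262730-35267499, plus strand) on the other. B2m is at 2:122147686-122153083 on the plus strand, Nlrc5 at 8:94434356-94527272 on the plus strand and Psmb10 at 8:105935735-105938444 on the minus strand. Exons of Tap1 and Psmb9 share 212 bases on opposite strands. The study's methods describe a strand-specific library but do not say whether counting used strand. Reads from that stretch therefore cannot be assigned to Tap1 or Psmb9 with certainty. Tapbp shares 149 exon bases with Zbtb22 on the same strand and 904 with Gm19412 on the other. Exons of Tap2 (698 bases summed over Gm20496 and Gm15821), Psmb8 (498) and Nlrc5 (78) overlap other genes on the opposite strand. Reads from these stretches cannot be assigned with certainty either. H2-K1 and H2-D1 are near copies of each other and of other class I genes, and only uniquely mapped reads were counted, so their counts leave out reads from shared stretches.

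The promoters of the genes at the top and at the divergent pair of this pathway are shown because their letters can be read beside the counts. RefSeq start-site windows, 250 bases before to 50 after a start on GRCm38.p6, matched 8 of the 10 genes, and none was found for Tap2 and Nlrc5. Capitals mark matches to a kB motif (GGGA and CC with 4 bases between, in 20.7% of all 32851 windows), to an IRF motif (AANNGAAA, 23.9%) and to the X2 site core TGACG (20.8%), read on both strands. The first sequence is the 225 bases between the RefSeq starts of Psmb9 and Tap1 (17:34187331-34187555, plus strand). The others are 200 bases each from H2-K1 (17:34000348-34000547, minus strand), H2-D1 (17:35262894-35263093, plus strand) and B2m (2:122147487-122147686, plus strand). RefSeq and GENCODE starts differ for some of these genes. By the GENCODE positions above, the first sequence lies inside Psmb9 and the H2-D1 sequence inside H2-D1.
Tap1 and Psmb9: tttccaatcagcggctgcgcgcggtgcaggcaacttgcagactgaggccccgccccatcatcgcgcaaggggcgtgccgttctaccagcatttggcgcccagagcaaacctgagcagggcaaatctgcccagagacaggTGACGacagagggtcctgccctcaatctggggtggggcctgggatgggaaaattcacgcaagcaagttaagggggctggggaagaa
H2-K1: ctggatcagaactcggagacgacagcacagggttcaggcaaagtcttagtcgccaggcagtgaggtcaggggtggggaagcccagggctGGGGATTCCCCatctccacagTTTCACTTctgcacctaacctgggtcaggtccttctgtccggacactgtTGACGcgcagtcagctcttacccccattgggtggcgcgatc
H2-D1: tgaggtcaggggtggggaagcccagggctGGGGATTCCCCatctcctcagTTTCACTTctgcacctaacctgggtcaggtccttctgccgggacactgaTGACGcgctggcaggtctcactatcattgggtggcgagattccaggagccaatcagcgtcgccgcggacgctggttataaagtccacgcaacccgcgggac
B2m: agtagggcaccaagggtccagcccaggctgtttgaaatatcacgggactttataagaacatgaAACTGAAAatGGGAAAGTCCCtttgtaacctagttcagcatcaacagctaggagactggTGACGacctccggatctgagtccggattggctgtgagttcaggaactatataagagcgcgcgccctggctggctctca
H2-K1, H2-D1 and B2m held all 3 motifs, in the order kB, IRF and TGACG in the heavy chains and with the IRF match first in B2m. Tap1 and Psmb9 share 1 TGACG between their RefSeq starts. The longest stretch shared by the H2-K1 and H2-D1 windows of 300 bases is 47 bases, of which 46 are in the sequences shown, and it holds the kB match. The ISRE (GAAA and GAAA with 2 bases between, 3.44% of windows) occurred only in B2m among the 8, overlapping its IRF match, TTCNNNGAA (the GAS motif, 8.30%) only in Psmb8, and CCAAT (37.4%) in 6 of the 8. A match says only that these letters are in the window.

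In the control tissues, the light and heavy chains were the most abundant of the 10 transcripts and Nlrc5 the least. Levels between genes are given as RPKM, counts scaled to the length of the principal transcript and to library size, with the 24 samples normalized together. In the heart, B2m was at 3510 ± 258 RPKM (SD, n = 3), H2-K1 at 2600 ± 159 and H2-D1 at 1450 ± 103. The inducible subunits, the transporter subunit Tap1 and Tapbp formed a middle group there, from 128 RPKM for Tapbp to 225 RPKM for Psmb10, and Tap2 at 36.4 ± 2.67 and Nlrc5 at 23.2 ± 3.33 RPKM were lowest. The same 3 genes led and the same 2 closed the order in the other tissues. In the tongue, H2-K1 at 2450 ± 105 RPKM stood above B2m at 2250 ± 446, within the spread of B2m, and counted over all exons of a gene instead B2m came first. Among the middle group neighbours lay within their spread in most tissues, for example Tap1 at 135 ± 16.7 and Psmb9 at 133 ± 22.6 RPKM in the heart.

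**Figure D1:**
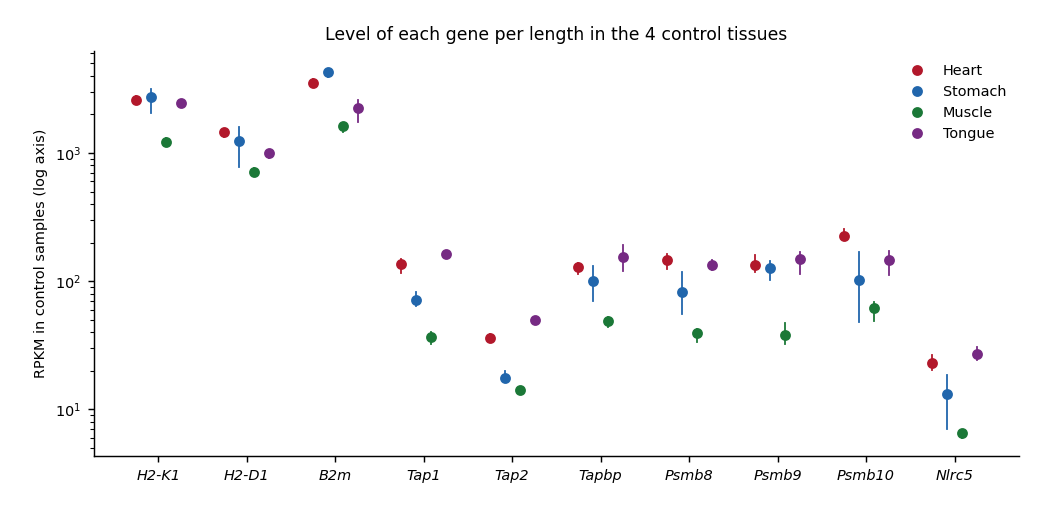
Level of each gene in the control samples, as RPKM on a log axis. Points are means of 3 samples, vertical lines run from the lowest to the highest sample, and colours give the tissue. B2m, H2-K1 and H2-D1 lie between 707 and 4250 RPKM in all 4 tissues, and muscle has the lowest mean of every gene.

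By mean, muscle had the lowest level of every gene. In edgeR's quasi-likelihood test on all 24 samples, all 10 were higher in control heart than in control muscle, by 1.03 for H2-D1 to 1.91 for Psmb8 on the log2 scale (adjusted p = 3.97e-07 to 0.0421), where 33.7% of all genes differed in either direction. The tongue was above muscle for 8 (38.1% of all genes differed), led by Tap1 at a 4.41-fold difference (adjusted p = 7.42e-08), whereas H2-D1 (1.42-fold, adjusted p = 0.0942) and B2m (1.40-fold, adjusted p = 0.0697) missed the threshold. The stomach was above muscle for 7 (51.6% of all genes differed), led by Psmb9 at 3.29-fold (adjusted p = 2.68e-06), and Tap2, Psmb10 and Nlrc5 missed the threshold. With 1 control sample left out at a time, 9 of the 10 genes were called between heart and muscle, 7 to 9 between tongue and muscle and 7 or 8 between stomach and muscle. The shares of all genes above are those of the full fit. Shares in the fits without a sample are not given here, so these counts show only how far the calls held.

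The other 3 tissues differed gene by gene. The heart was above the stomach for Tap1 (1.89-fold), Tap2 (2.08-fold), Psmb8 (1.79-fold) and Psmb10 (2.19-fold; largest adjusted p of these 0.0101), where 42.5% of all genes differed. The light chain went the other way from the transporter between tongue and stomach: B2m was 1.89-fold lower in the tongue (adjusted p = 0.00153) while Tap2 was 2.82-fold higher (adjusted p = 3.21e-07) and Tap1 2.28-fold higher (adjusted p = 7.73e-05). Tapbp and Psmb8 were also higher in the tongue, so that 5 genes differed there, where 36.9% of all genes did, and 3 without stomach control replicate 2, where 31.6% did. Between heart and tongue, where 29.1% of all genes differed, B2m was 1.56-fold higher in the heart (adjusted p = 0.0233) and Tap2 1.36-fold lower (adjusted p = 0.0355). Both heart and tongue calls depended on the samples, since 0 or 1 gene of the 10 was called without any 1 control sample. Shares of all genes in those fits are likewise not given here.

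After SN-011, 39 of the 40 values of a gene in a tissue were below 0, but none of the 10 genes passed the adjusted threshold in any tissue fitted alone. For heart, stomach, muscle and tongue in this order, the median log2 fold change of the 10 was −0.24, −1.05, −0.40 and −0.35, beside −0.01, 0.00, −0.08 and −0.01 over all genes tested. Every SN-011 sample lay below every control sample for 1, 8, 7 and 7 of the 10, where this held for 13.1%, 15.2%, 19.8% and 8.38% of all genes. Without adjustment, 4, 7, 6 and 7 of the 10 were lower at p under 0.05, beside 11.6%, 11.4%, 5.80% and 7.33% of all genes. With adjustment, edgeR's quasi-likelihood test called 0 of the 10 lower in each tissue, beside 0.328%, 0%, 0.00704% and 0% of all genes. DESeq2 called 1, 6, 3 and 2 of the 10 lower in the same order, beside 4.07%, 6.53%, 2.9% and 1.77% of all genes, and edgeR's exact test 1, 6, 0 and 0, beside 2.82%, 4.12%, 1.35% and 1.12%. The stomach gave the lowest value of the 4 tissues for 8 genes, and the muscle for Tap2 and Nlrc5. A list of leukocyte genes had medians of −0.48, −0.04, 0.12 and −0.45 in these tissues, so that in heart and tongue it lay below the median of the 10, and its part in the values was not tested. In bulk tissue, fewer cells that carry a transcript and less of it in each cell cannot be told apart.

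**Figure D2:**
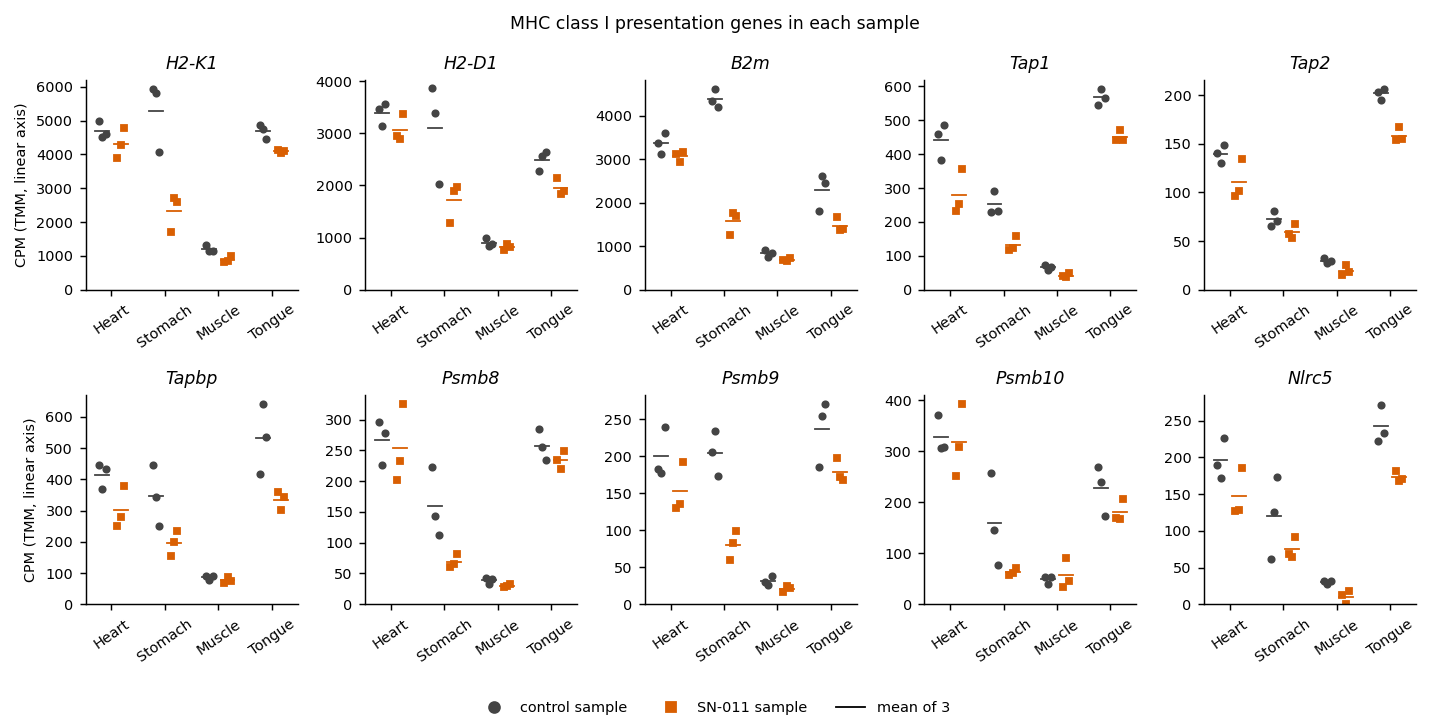
CPM of each gene in each of the 24 samples on linear axes that start at 0, with CPM scaled within each tissue. Grey circles are control samples, orange squares SN-011 samples and horizontal lines the mean of 3. In the stomach, B2m lies at 4194 to 4625 CPM in the controls and at 1257 to 1766 CPM after SN-011.

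**Figure D3:**
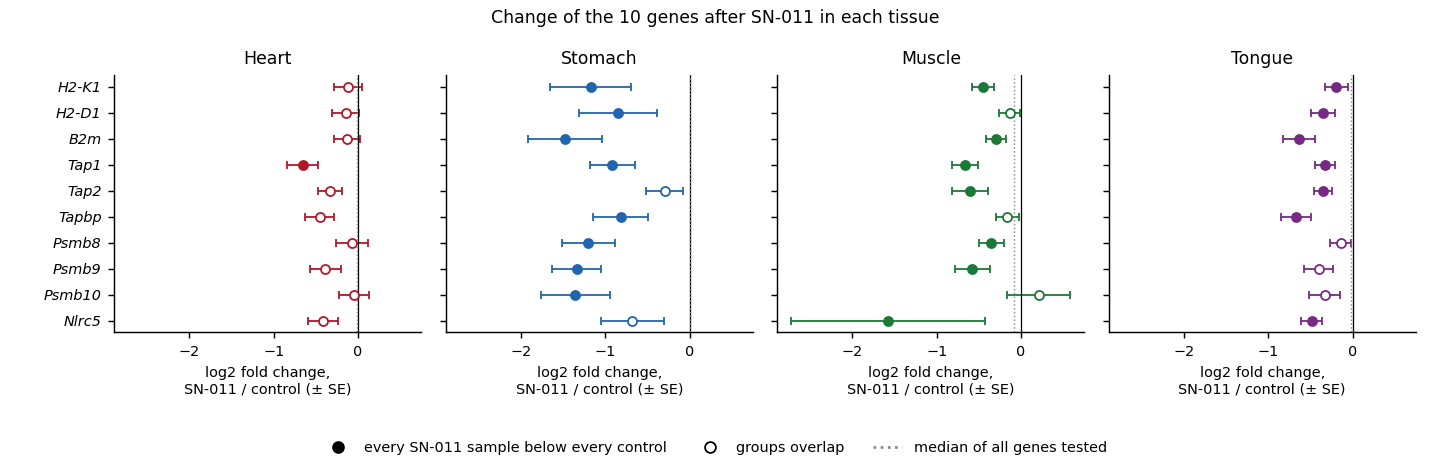
Log2 fold change of each gene, SN-011 against control, with its standard error, in each tissue. Filled points mark genes whose SN-011 samples all lie below all control samples, and the dotted line is the median of all genes tested. Of the 40 points, 39 lie left of 0 and 23 are filled, and Psmb10 in muscle lies at 0.21.

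In the stomach, the number of calls differed between the fits. In the fit of all 24 samples, which takes 1 spread for all tissues, scales them together and tests 19731 genes in place of 17031, 8 of the 10 genes were lower in the stomach after SN-011, where 7.18% of all genes were, and in the muscle the same fit called Tap1 and Tap2, where 1.41% were. The 8 in the stomach were B2m, H2-K1, H2-D1, Tap1, Tapbp, Psmb8, Psmb9 and Psmb10, with adjusted p from 0.000292 to 0.0161, and Tap2 (adjusted p = 0.166) and Nlrc5 (adjusted p = 0.51) did not pass. That fit called 5 without stomach SN-011 replicate 1 (B2m, H2-K1, Psmb8, Psmb9 and Tap1, beside 2.09% of all genes), 6 without stomach control replicate 1 (these and H2-D1, beside 5.14%), and all 8 without any other sample. In the stomach fitted alone the smallest adjusted p was 0.0715, for Psmb9.

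B2m, the light chain that every class I molecule needs, had the largest fall of the 10 genes in the stomach. In the stomach it was at 4331, 4625 and 4194 CPM in the controls and at 1257, 1766 and 1698 CPM after SN-011. The groups lie far apart, 2.78-fold, with a log2 fold change of −1.48 ± 0.44 (SE; edgeR quasi-likelihood, adjusted p = 0.107). In the heart it was at 3381, 3133 and 3596 CPM in the controls and at 3127, 2931 and 3171 CPM after SN-011. There the groups overlap, at −0.13 ± 0.15. In the tongue it went from 1803, 2618 and 2447 CPM to 1663, 1367 and 1398 CPM (log2 fold change −0.63 ± 0.19, adjusted p = 0.303), with control replicate 1 the closest to the SN-011 samples. In the muscle the controls were at 913.6, 753.5 and 856.7 CPM and the SN-011 samples at 673.2, 655.5 and 729.4 CPM, a small gap with no overlap.

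H2-K1, the more abundant heavy chain, followed B2m in the stomach. Its controls there were at 5941, 5816 and 4069 CPM and its SN-011 samples at 1721, 2716 and 2580 CPM, a log2 fold change of −1.17 ± 0.48 (adjusted p = 0.182). In the muscle the values were 1310, 1150 and 1142 CPM against 816.1, 837.0 and 990.7 CPM, and in the tongue 4858, 4746 and 4448 CPM against 4133, 4048 and 4109 CPM. Groups were apart in these 3 tissues, by 1.14-fold in the tongue, and overlapped in the heart. H2-D1, the other heavy chain, was less separated, with stomach controls at 3863, 3385 and 2030 CPM and SN-011 samples at 1281, 1887 and 1972 CPM (−0.85 ± 0.46), so that control replicate 3 lay just above the highest SN-011 sample. The log2 ratio of H2-K1 to H2-D1 was lower in every SN-011 sample than in every control in stomach (−0.36) and muscle (−0.31). In tongue and heart the groups overlapped, at 0.16 and 0.02 (exact p = 0.2 and 0.7). For 3 samples against 3 an exact two-sided permutation test cannot go below p = 0.1, and the stomach and muscle ratios were at it (0.25 after Benjamini-Hochberg adjustment over the 20 ratios tested).

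Tap1, the transporter subunit that is transcribed away from Psmb9, was the 1 gene of the 10 with no overlap in all 4 tissues. In heart, stomach, muscle and tongue taken singly, 13.1%, 15.2%, 19.8% and 8.38% of all genes had every SN-011 sample below every control. The share of all genes apart in all 4 at once is not given here. The heart controls of Tap1 were at 458.9, 383.9 and 485.4 CPM and its SN-011 samples at 233.4, 252.0 and 357.3 CPM (−0.66 ± 0.18, adjusted p = 0.101). In the muscle it was at 73.04, 58.23 and 66.52 CPM against 40.49, 36.46 and 48.14 CPM (−0.66 ± 0.15, adjusted p = 0.174). The tongue values of 543.7, 590.7 and 566.7 CPM against 441.4, 471.1 and 442.9 CPM gave the smallest separation, 1.25-fold. In the stomach it was at 229.6, 292.0 and 233.3 CPM against 116.9, 124.4 and 158.6 CPM (−0.92 ± 0.27). DESeq2 and edgeR's exact test each called Tap1, and no other of the 10, in the heart.

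Tap2 encodes the partner of TAP1 in the transporter. In the stomach it was at 65.26, 81.25 and 70.56 CPM against 57.26, 52.90 and 67.07 CPM after SN-011, with overlap (−0.29 ± 0.22). The log2 ratio of Tap1 to Tap2 was lower in every SN-011 sample in heart (−0.33) and stomach (−0.63; exact permutation p = 0.1 for each), and differed by −0.03 in muscle and 0.02 in tongue (exact p = 1 and 0.7). In muscle the log2 ratios were 1.65, 0.77 and 1.61 after SN-011 against 1.40, 1.30 and 1.41 in the controls. SN-011 replicates 1 and 3 thus lay above every control. Replicate 2, the library with counts on few genes, lay below them all. In the muscle Tap2 was at 32.19, 27.50 and 29.20 CPM against 15.05, 24.96 and 18.37 CPM (−0.61 ± 0.21), where SN-011 replicate 2 is the highest of its group. Without that library the value was −0.83 ± 0.13 (adjusted p = 0.0290). Tapbp, tapasin, was apart in stomach and in tongue, where 416.5, 642.6 and 535.7 CPM stood against 358.7, 300.3 and 343.0 CPM (−0.67 ± 0.18, adjusted p = 0.283).

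The inducible proteasome subunits were lower in all 3 SN-011 samples of the stomach. Psmb9, which replaces Psmb6, was there at 205.5, 233.8 and 172.5 CPM in the controls and 59.44, 83.11 and 99.31 CPM after SN-011 (−1.34 ± 0.29, adjusted p = 0.0715). Psmb8 was at 222.5, 144.1 and 112.3 CPM against 61.09, 65.36 and 81.87 CPM (−1.20 ± 0.31, adjusted p = 0.0885). Psmb10 was at 256.9, 145.7 and 77.56 CPM against 56.79, 60.35 and 70.57 CPM (−1.35 ± 0.41, adjusted p = 0.11). The controls of Psmb8 and Psmb10 spread widely, with replicate 1 highest and replicate 3 close to the SN-011 samples, and without control replicate 1 the value of Psmb10 was −0.86 ± 0.31. In the heart, Psmb8 and Psmb10 overlapped and were at −0.07 ± 0.19 and −0.05 ± 0.18. Psmb10 in muscle was the 1 value above 0, at 0.21 ± 0.38, and its SN-011 samples at 32.90, 90.47 and 45.81 CPM include the highest of the 6 in replicate 2. Without that library it was −0.31 ± 0.20, and with library size as the only scaling −0.05.

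Set against the constitutive subunit that each replaces, Psmb9 was the one that separated most often. The ratio of Psmb9 to Psmb6, by RPKM, was 0.876 in control heart and 0.537 after SN-011, 0.615 and 0.329 in stomach, and 0.108 and 0.0543 in muscle. All SN-011 samples were below all controls in these 3 tissues (exact permutation p = 0.1 each, 0.25 adjusted over 20 ratios), and in the tongue the groups overlapped at 0.686 and 0.484 (exact p = 0.2). Psmb8 to Psmb5 was apart in muscle, at 0.171 and 0.0981, and overlapped in the other tissues, and Psmb10 to Psmb7 overlapped in all 4 tissues. Psmb5 and Psmb6 themselves were at −0.71 ± 0.38 and −0.47 ± 0.33 on the log2 scale in stomach and at 0.48 ± 0.18 and 0.43 ± 0.18 in muscle (adjusted p = 0.28 and 0.405, and 0.304 and 0.33). In the heart they were at 0.29 ± 0.14 and 0.30 ± 0.13 (adjusted p = 0.239 and 0.227), and there Psmb9 alone, at 183.1, 177.8 and 238.8 CPM against 130.6, 134.9 and 191.9 CPM, overlapped between the groups. Control muscle had the lowest ratio for each pair.

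**Figure D4:**
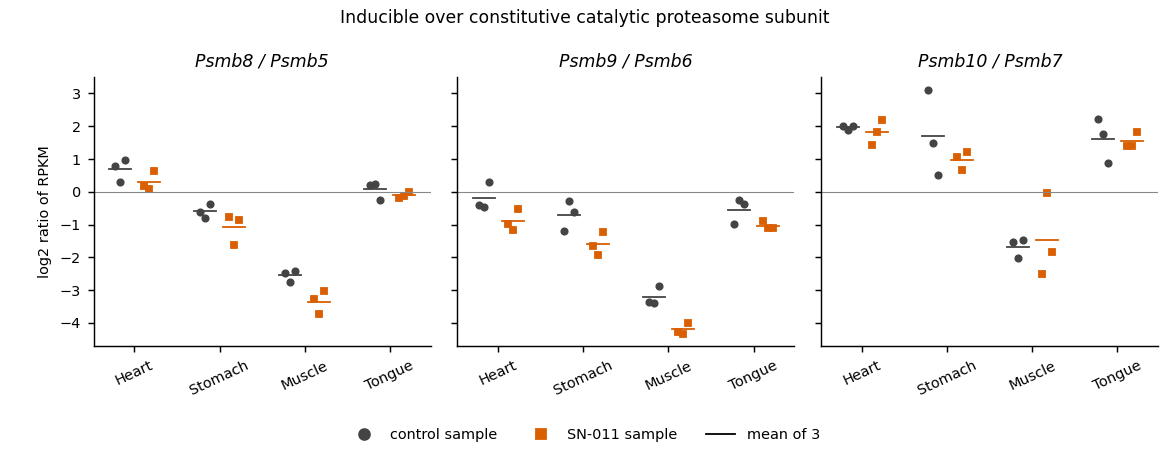
Log2 ratio of RPKM of each inducible proteasome subunit to the constitutive subunit it replaces, in each sample. Grey circles are controls, orange squares SN-011 samples, lines the mean of 3, and 0 means equal RPKM. For Psmb9 over Psmb6, the muscle controls lie from −3.40 to −2.87 and the SN-011 samples from −4.33 to −4.01.

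Nlrc5, the class I activator, was the least abundant member and its tissues differed in how far it could be read. In the tongue it was at 222.6, 272.1 and 233.3 CPM against 181.7, 168.3 and 170.3 CPM (−0.48 ± 0.12, adjusted p = 0.281), with no overlap. In the muscle it was at 31.72, 27.50 and 31.47 CPM against 12.07, 0 and 18.14 CPM (−1.57 ± 1.15, adjusted p = 0.587). The sample at 0 is replicate 2, the library with counts on few genes, and without it the groups stayed apart at −0.999 ± 0.18 (adjusted p = 0.0353). In the heart the controls of 189.3, 172.6 and 226.5 CPM overlapped the SN-011 samples of 127.7, 127.8 and 185.2 CPM. In the stomach control replicate 1 at 61.87 CPM lay below all SN-011 samples, and the other controls at 125.4 and 173.3 CPM above them.

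In the fits of 1 tissue alone, leaving out single libraries changed calls in muscle and tongue. Without muscle SN-011 replicate 2, Nlrc5 and Tap2 were called lower in the muscle, where 3.80% of all genes were. Without tongue control replicate 1, which had high Xist, B2m (−0.78), Nlrc5 (−0.54), Psmb9 (−0.55) and Tapbp (−0.82) were called lower in the tongue, with adjusted p from 0.0108 to 0.0284, where 8.04% of all genes were. The tongue controls that remain in that fit are the 2 with 2520 and 1810 CPM of gastric gland genes.

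Whether the change itself differed between tissues was tested in the fit of all samples, which takes 1 spread for all tissues. For the change of B2m in the stomach that fit gave an SE of 0.21, where the stomach fitted alone gave 0.44. Differences that involve the stomach therefore rest in part on the spread of the other tissues. B2m was lowered more in the stomach than in the heart, with a log2 difference of 1.37 ± 0.29 for heart minus stomach (adjusted p = 0.0223), and more than in the muscle, with −1.13 ± 0.29 for stomach minus muscle (adjusted p = 0.0249). It was the 1 gene of the 10 called in each of these contrasts, where 2.01% and 6.95% of all genes were. With 1 of the 12 samples left out at a time, the first call held in 4 of 12 fits (adjusted p = 0.00791 to 0.0731) and the second in 8 of 12 (adjusted p = 0.0104 to 0.0789). Without stomach control replicate 3, 6 of the 10 genes were called between heart and stomach and 4 between stomach and muscle, where 5.48% and 11.9% of all genes were. Between tongue and stomach B2m differed by 0.88, with an approximate 95% interval from 0.31 to 1.45 (adjusted p = 0.14), and 0 of the 10 genes were called where 0.821% of all genes were. Of the 10, 0 were called between heart and muscle, heart and tongue, and tongue and muscle, where 0.00507%, 0% and 0.0355% of all genes were called. For Psmb8, heart and stomach differed by 1.16, with an interval from 0.53 to 1.79 (adjusted p = 0.0612), which misses the threshold without showing that the tissues respond alike. Psmb8 was called there with same-numbered samples of a treatment as a block (1.12 ± 0.27, adjusted p = 0.0475) and by DESeq2 (1.08 ± 0.32, adjusted p = 0.0152), where 1.56% and 7.1% of all genes were. DESeq2 also called H2-K1 between heart and stomach (1.01 ± 0.23, adjusted p = 0.00109). The edgeR fit of all samples put H2-K1 there at 1.08 ± 0.32 (adjusted p = 0.0777).

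The rest of the pathway was read from a list of 55 genes, of which 50 to 52 were tested. None passed the adjusted threshold in any tissue by edgeR's quasi-likelihood test. At p under 0.05 without adjustment, 13 were lower and 2 higher in heart, 17 and 0 in stomach, 9 and 13 in muscle, and 13 and 0 in tongue. Over all genes tested, 11.6%, 11.4%, 5.80% and 7.33% were lower and 10.8%, 13.2%, 8.96% and 5.17% higher at that p. Their median log2 fold changes, in the same order, were −0.10, −0.59, 0.03 and −0.23. Of the 16 other class I and class I-like heavy chains, 11 to 13 were tested, with medians of −0.37, −0.61, −0.51 and −0.36. Their largest changes at 1 CPM or more were H2-Q10 in the heart (−1.16 ± 0.45, adjusted p = 0.177), H2-Q2 in stomach (−2.14 ± 0.62, adjusted p = 0.103) and H2-T24 in muscle (−1.85 ± 1.20, adjusted p = 0.538), and Blmh, a cytosolic peptidase, had the largest of the list in the tongue (−0.98 ± 0.39, adjusted p = 0.384). The 11 other subunits of the 20S proteasome, the core that the inducible subunits enter, all had values below 0 in stomach, 7 of them at p under 0.05, and all above 0 in muscle, 8 at p under 0.05, while in heart 10 of 11 were above 0. The proteasome activator genes Psme1 and Psme2 were at −1.20 ± 0.31 and −0.998 ± 0.28 in the stomach (adjusted p = 0.0882 and 0.0973).

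Markers of other cells moved with some of these values, and their part in the results was not tested. The keratins of squamous epithelium listed for the tongue (Krt4, Krt5, Krt6a, Krt13 and Krt14) were also present in the stomach. There they summed to 110 to 235 CPM in the controls and 440 to 1460 CPM after SN-011, with 5 of 5 above 0. Where in the stomach samples they came from was not tested. The gastric gland genes ran from 34100 to 115000 CPM in the stomach controls and 19600 to 101000 CPM after SN-011. The 24 leukocyte genes summed to 449 to 826 CPM in control stomach and 303 to 1020 CPM after SN-011, with overlap. Lyz2, a lysozyme of macrophages and neutrophils, made up much of these sums, at 748 CPM in control heart and 755 CPM after SN-011. Gene by gene, values were below 0 for 19 of the 23 leukocyte genes tested in heart and 12 of 22 in stomach. In muscle 8 of 19 were below 0, and in tongue 14 of 20. At p under 0.05 without adjustment, 5 leukocyte genes were lower and 1 higher in heart, and 4 and 3 in stomach. In muscle 1 was lower and 1 higher, and in tongue 5 and 0. Beside these stand 11.6% of all genes lower and 10.8% higher in heart, and 11.4% and 13.2% in stomach. For muscle the shares were 5.80% and 8.96%, and for tongue 7.33% and 5.17%. Leukocyte sums were 1110 to 1990 against 1180 to 1520 CPM in the heart, 306 to 332 against 263 to 429 CPM in the muscle, where Ly6g was at 0, and 769 to 1060 against 676 to 831 CPM in the tongue. The 5 endothelial genes summed to 231 to 279 CPM in control muscle and 165 to 197 CPM after SN-011, without overlap, and to 56.6 to 93.0 against 91.6 to 124 CPM in the stomach. No gene of these lists passed the adjusted threshold by edgeR's quasi-likelihood test.

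The genes whose profile was most like the mean of the 10 were found by Pearson's r of log2(CPM + 0.5), centred within each tissue, over the 24 samples. Ube2l6 (r = 0.958), an E2 enzyme of ISG15 conjugation, Bst2 (0.954), the antiviral protein tetherin, and Irgm1 (0.939), an immunity-related GTPase, came first of 12589 genes, followed by Nras (0.938), a small GTPase, and Leprot (0.935). The median r of all those genes was 0.196. The points share their libraries and include the contrast between treatments. Without muscle SN-011 replicate 2, Psme2 came first at 0.955, Bst2, Ube2l6 and Irgm1 followed, and Nras and Leprot were 12th and 17th. Each of the 10 is part of the mean it was set against, and on that footing Tap1 (0.947) and H2-K1 (0.937) were closest to it and Nlrc5 (0.611) and Psmb10 (0.582) farthest.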

How the data were processed

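Polyadenylated RNA of heart, stomach, muscle and tongue of Trex1-KO mice was sequenced in 24 samples, which the labels place in a tissue and a treatment. For each sample the authors deposited 1 raw count per gene, not normalized. The study's methods name Trimmomatic, hisat2 and featureCounts on uniquely mapped pairs, while the submitters' processing notes name HISAT2, HTSeq and mm10, so the counter is given in 2 ways; a strand-specific library is described, but versions, annotation and the use of strand in counting are not given in the sources used here. How reads of overlapping genes were assigned is therefore unknown here.

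Of 54532 gene identifiers, 54495 are in GENCODE M21, which gave symbols, positions and lengths. Library depth was 14253416 to 18443329 counts, so 3 counts correspond to 0.163 to 0.210 CPM. The main test was the quasi-likelihood test of edgeR 4.0.16, run in R 4.3.3 on 1 tissue at a time after TMM scaling. Genes were kept by filterByExpr at 10 counts and a total of 15, fold changes took 0.125 as prior count, and p-values were adjusted by Benjamini-Hochberg over all genes tested with a threshold of 0.05. Levels and differences between tissues came from a joint fit of 24 samples. The study's methods name edgeR's negative binomial test, which was run as an alternative. Ratios were compared by exact two-sided permutation over the 20 relabellings of 3 against 3. The fits were also run on simulated counts with the same spread for every gene. That does not show how they perform at the spread of these samples. DESeq2 1.42.0, limma 3.58.1, Python 3.11.15, pandas 2.3.3, numpy 2.4.6, scipy 1.17.1 and matplotlib 3.10.9 were also used.

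The members and the pathway and marker lists were chosen with earlier results of these data known. All 10 members were named, together with the listed pathway genes past the threshold (0 were), the gene of largest change at a mean of at least 1 CPM in each tissue, and the 5 genes most like the mean of the members. Psmb5, Psmb6 and Psmb7 were named as partners of the inducible subunits, and Psme1 and Psme2 after their values were seen. As alternatives, scaling used DESeq2's size factors or the library size only, filtering was dropped or required 10 counts in every sample, and the test was DESeq2 or edgeR's exact test. Others were the joint fit, the control samples alone, the replicate number as a block, and leaving out each sample. Length over all exons and likeness without muscle SN-011 replicate 2 were added after seeing the data.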

Additional observations from a re-analysis of the deposited data

Results flagged for a closer look

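The change of B2m after SN-011 differed between tissues by a test of the difference itself, in the fit of all 24 samples. That fit takes 1 spread for all tissues. It gave the change of B2m in the stomach an SE of 0.21, where the stomach fitted alone gave 0.44. Heart minus stomach gave a log2 difference of 1.373 (SE 0.29, adjusted p = 0.0223). Heart samples overlapped between treatments, while all 3 SN-011 samples of the stomach lay below all 3 controls. The 5 other settings tried all called it (adjusted p = 2.75e-06 to 0.0424), and of the 12 fits without 1 sample the call held without stomach control replicates 1, 2 or 3 or stomach SN-011 replicate 2 (the other 8 gave adjusted p of 0.0503 to 0.0731). Stomach minus muscle gave −1.1343 (adjusted p = 0.0249). It was called under 4 of 5 other settings, the exception being library size alone (−0.7856, adjusted p = 0.0634), and in 8 of 12 fits without 1 sample, the exceptions being muscle control replicates 2 and 3, muscle SN-011 replicate 3 and stomach SN-011 replicate 1. The stomach SN-011 samples also carry 440 to 1460 CPM of keratins of squamous epithelium, against 110 to 235 CPM in the stomach controls. Their part in this difference was not tested.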

How the results depend on the processing

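The count of genes lower after SN-011, 0 of 10 in each tissue, became 1 in the heart with no filter (3.92% of all genes were lower), DESeq2 (4.07%) or the exact test (2.82%). In the stomach it became 3 with no filter (1.84%), 6 with DESeq2 (6.53%), 6 with the exact test (4.12%) and 8 in the joint fit (7.18%). In the muscle it became 3 with DESeq2 (2.9%) and 2 in the joint fit (1.41%), and in the tongue 2 with DESeq2 (1.77%). Without 1 sample it ran from 0 to 0 in heart and stomach, 0 to 2 in muscle and 0 to 4 in tongue. The median of the 10 kept its sign in each tissue under each alternative, at (heart, stomach, muscle, tongue) −0.41 to −0.19, −1.22 to −0.91, −0.47 to −0.34 and −0.38 to −0.33 without 1 sample. Library size alone moved the median of all genes to −0.16, 0.18, −0.31 and 0.06 (heart, stomach, muscle, tongue), and that of the 10 genes to −0.39, −0.85, −0.63 and −0.27. That scaling put 68.2%, 40.4%, 71.0% and 43.0% of all genes below 0, where TMM put 51.4%, 49.8%, 55.5% and 51.5%.

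Single values reversed for Psmb10 in the heart (−0.246 to 0.0969 without 1 sample, 0.0279 without control replicate 1 and 0.0969 without SN-011 replicate 1), Psmb8 in the heart (−0.3105 to 0.0713, the highest without SN-011 replicate 1) and Psmb10 in the muscle (−0.0549 with library size alone, −0.3102 to 0.4745 without 1 sample, the lowest without SN-011 replicate 2). The cause was not tested.

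Genes whose change differed between heart and stomach, 1 of 10, became 3 with DESeq2 (7.1% of all genes differed), 2 with the replicate block (B2m and Psmb8; 1.56%), and 0 to 6 without 1 sample. Between stomach and muscle, 1 became 0 with library size alone (9.04%), 3 with DESeq2 (14.7%), and 0 to 4 without 1 sample. Between tongue and stomach, 0 became 3 with DESeq2 (5.19%) and 0 to 2 without 1 sample, the 2 without stomach control replicate 3 (2.69%). Between control heart and tongue, 2 became 1 with DESeq2's size factors (29.7%), 0 with no filter (14.4%), 1 with control samples alone (32.3%), and 0 to 1 without 1 sample, and between control tongue and stomach 5 became 3 to 6. The replicate block gave medians of −0.25, −1.04, −0.40 and −0.35 and changed no other count by over 1.5 times. Same-numbered control and SN-011 samples of a tissue correlated at a mean r of −0.06, 0.07, 0.04 and −0.31. Between tissues, same-numbered controls correlated at a mean r of 0.20 and SN-011 samples at 0.09, against −0.09 and −0.04 for other numbers, with 15 and 8 of 18 pairs over 0.1, and 30 and 24 of 36 comparisons put a sample closest to its own number, which is a hint from the data and not from the design. The block medians above come from fits of 1 tissue, where the block joins a control with the SN-011 sample of the same number. The labels give no basis for that pairing. In the joint fit the block joins same-numbered samples of a treatment, and without it the tissue contrasts take no pairing into account. With 3 samples a group, a difference smaller than the spread between them could be missed, and so could a larger one. B2m in the stomach, at 4380 ± 220 against 1570 ± 276 CPM (SD), had an adjusted p of 0.107 in edgeR's quasi-likelihood test of that tissue. How small a difference could be detected was not computed.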
